A study of Rattus norvegicus with 2 samples.

Results

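The genes described here encode the interstitial matrix of the kidney and mark the fibroblasts that make it. They were chosen by name as 34 genes in 6 roles: fibrillar collagens, other collagens, glycoproteins with the elastic fibre genes, proteoglycans, cross-linkers with a collagen chaperone, and myofibroblast genes with fibroblast receptors. Earlier results of these data were known when they were chosen. Of the 34 genes, 28 had at least 1 probe whose accession leads to a current rat symbol, with 39 probes and 57 spots in all. Of these, 26 were well above background on both arrays and count as measured, among 10484 measured genes of 13435 named on the array. Col5a2, Col6a1, Col6a3, Col12a1, Lox and Acta2 had no matched probe and were not analysed here.

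RNA came from whole kidneys of females of the PCK rat strain, which carries a mutation in Pkhd1 and develops cystic kidneys, as in autosomal recessive polycystic kidney disease. The treated rats were gavaged each day with 10 mg/kg of pioglitazone, which activates the nuclear receptor PPAR-gamma, between weeks 4 and 20 of life, and the control rats with a vehicle of 0.5% DMSO. Both groups carry the strain's mutation, and rats without it were not analysed here. Each group was pooled and hybridised, labelled with Cy3, to 1 array, and the texts give the size of a pool both as 5 females and as 3 rats. A single array per treatment leaves each difference without a replicate check or a test, and the spread between animals is not known.

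Fibrillar collagens form the fibres that give the interstitium its tensile strength, and lysyl oxidases cross-link them. Fibronectin, fibrillin and matricellular glycoproteins build a meshwork between fibres and cells, while small proteoglycans such as decorin and biglycan bind the fibres and growth factors. Fibroblasts and the contractile myofibroblasts derived from them are the main source of this matrix in the kidney, and its build-up, interstitial fibrosis, accompanies cyst growth.

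Most matrix genes had somewhat lower values in the pioglitazone pool, and the median of each of the 6 roles was negative. Of 26 measured members, 24 (92.3%) had a difference below 0, where 43.8% of all measured genes did. The median difference was -0.27 on the log2 scale, pioglitazone minus vehicle, against 0.027 over all measured genes, and the members ran from -0.65 to 0.14. In 12 members the difference lay at or below the 10th percentile of all measured genes, and in 21 at or below the 25th percentile. In whole-kidney RNA, fewer cells of a type and less RNA per cell cannot be told apart.

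Single genes were set against 1.5-fold and against 2 times the technical error, which combines the scanner software's own error of both spots and holds no spread between animals. By this criterion 2 of 26 members (7.69%) were lower, Col3a1 and Fbn1, where 1.76% of all measured genes were. No member was higher, where 0.754% of all genes were. Of the genes past the criterion, 184 were lower and 79 higher, and the split moves with the processing: 132 and 109 with median scaling, 119 and 131 without scaling, and 48 and 10 with normexp. The normexp background correction adds an offset of 50 to both signals, which by itself shrinks the differences of dim genes. Fewer calls with normexp therefore do not measure the background correction alone. Past 2 technical errors without the fold, 7 members (26.9%) were lower, against 3.84% of all genes: Col1a2, Col3a1, Col8a1, Loxl2, Fbn1, Tnc and Vcan. By a limit of 20% alone, 9 members (34.6%) were lower, against 7.98% of all genes. Among genes with a mean signal of at least 100, where spots are less noisy, this was 7 of 21 members against 4.88% of 7507 genes. The calls at 1.5-fold depend on the processing: none was left without scaling or with normexp background correction, 1 with median scaling (Fbn1), and 4 when the scaling used detected probes (Col3a1, Fbn1, Tnc and Vcan). At the same scaling, the mean over probes called Col3a1 and Vcan, and leaving out the sixth and the seventh of the array's 10 bands of grid rows called Col3a1, Fbn1 and Vcan. The lower share of all genes was 1.91% with detected probes, 1.66% with the mean over probes and 1.78% without those bands.

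**Figure D1:**
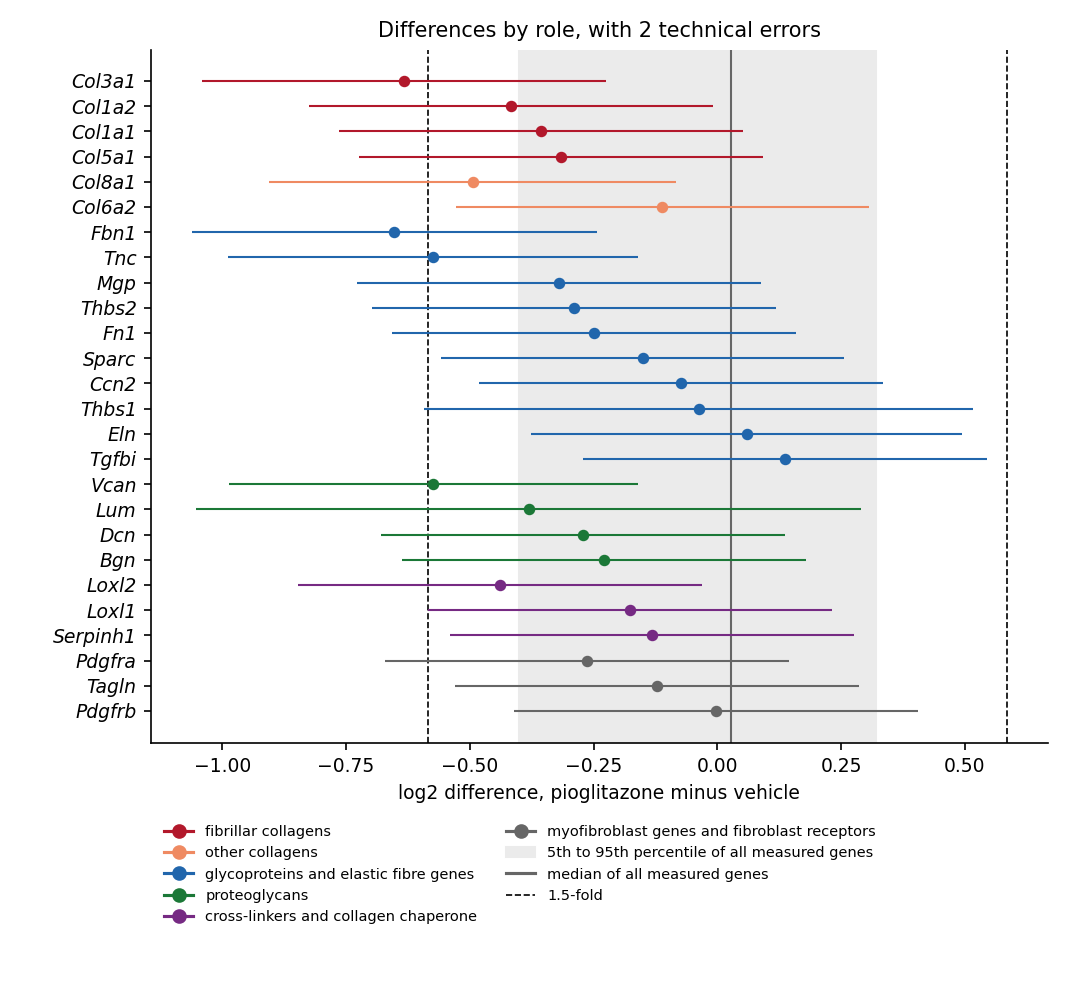
Log2 difference, pioglitazone minus vehicle (horizontal axis), of the 26 measured genes, coloured by role, with bars of 2 technical errors on either side; 1 array per group. The grey band is the 5th to the 95th percentile of all measured genes (-0.40 to 0.32), the grey line their median (0.027) and the dashed lines 1.5-fold; Col3a1 and Fbn1 alone lie past the lower dashed line.

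The stretches before the annotated start of 4 members are shown because they bracket the range of the roles: Col1a2, Fbn1 and Vcan have the lowest difference of their role among members with an entry in the promoter table (-0.42, -0.65 and -0.57), and Tgfbi is the member with the highest difference (0.14). Each is the 250 bases before the start, read 5′ to 3′ along the gene in build GRCr8 of RefSeq. They lie at chr4:33518307-33518556, plus strand (Col1a2), chr3:133203391-133203640, minus strand (Fbn1), chr2:22595956-22596205, minus strand (Vcan, the first of its starts in the table) and chr17:7990114-7990363, minus strand (Tgfbi). Capitals mark every match, on either strand, to 6 short motifs. These are CCAAT (which reads ATTGG where it lies on the opposite strand), the TATA box as TATAAA, the GC box core GGGCGG (or CCGCCC when reversed), the AP-1 core TGANTCA, the SMAD core CAGAC (or GTCTG when reversed) and the nuclear receptor half-site as AGGTCA. No match shown overlaps another.
Col1a2: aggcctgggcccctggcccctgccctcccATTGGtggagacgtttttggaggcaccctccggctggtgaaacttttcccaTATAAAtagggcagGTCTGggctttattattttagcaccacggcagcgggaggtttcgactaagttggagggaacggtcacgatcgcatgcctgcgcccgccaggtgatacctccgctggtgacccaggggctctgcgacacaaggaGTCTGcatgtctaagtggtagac
Fbn1: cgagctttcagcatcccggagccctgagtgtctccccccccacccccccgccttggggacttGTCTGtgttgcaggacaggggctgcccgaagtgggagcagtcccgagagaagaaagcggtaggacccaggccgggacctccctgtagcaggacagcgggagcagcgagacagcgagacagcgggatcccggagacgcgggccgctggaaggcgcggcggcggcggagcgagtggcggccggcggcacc
Vcan: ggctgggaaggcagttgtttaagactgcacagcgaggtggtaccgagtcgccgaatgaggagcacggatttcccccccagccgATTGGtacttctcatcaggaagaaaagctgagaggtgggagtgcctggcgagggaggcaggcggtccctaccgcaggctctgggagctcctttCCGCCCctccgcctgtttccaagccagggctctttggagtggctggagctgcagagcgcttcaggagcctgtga
Tgfbi: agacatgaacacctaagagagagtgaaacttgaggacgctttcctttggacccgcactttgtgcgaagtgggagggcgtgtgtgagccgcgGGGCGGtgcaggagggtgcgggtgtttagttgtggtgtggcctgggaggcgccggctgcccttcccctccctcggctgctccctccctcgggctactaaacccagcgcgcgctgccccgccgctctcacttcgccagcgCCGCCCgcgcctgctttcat

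Entries were found for 19 of the 34 genes, 14 of them measured. GGGCGG occurred in 8 of the 14 stretches (57.1%) and in 30.5% of 33469 stretches of the same length in the table. The table's stretches hold every annotated start and also genes that were not measured, while each member counts with 1 start. CAGAC occurred in 9 (64.3%) and in 42.9%. CCAAT occurred in 5 (35.7%) and in 11385 of the 33469 stretches, TATAAA in 3 (21.4%) and in 12.9%, and TGANTCA in 1 (7.14%) and in 6.34%. AGGTCA occurred in 0 of 14 and in 14.1%, which says only that these letters are not in these windows. The members' stretches were richer in G and C, with a median of 60.4% against 51.2%. In Col1a2 the TATAAA began 170 bases before the annotated start and the matches to CAGAC 156 and 23 bases before it. In Fbn1 the only match was CAGAC, 188 bases before the start. Vcan held CCAAT 167 and GGGCGG 74 bases before it, and Tgfbi held GGGCGG at 159 and 20 bases. Matches of this length are a description and not sites.

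All 4 measured fibrillar collagens had negative differences, with a median difference of -0.39 that ran from -0.43 to -0.30 over the alternative settings. Col3a1, the chain of type III collagen that is plentiful in pliable organs and early scars, gave a signal of 2900 with vehicle and 1980 with pioglitazone. After scaling this is a difference of -0.63 with a technical error of 0.20, or 1.55-fold lower, and 1.38% of measured genes had a difference as low. Col1a2, the second chain of type I collagen, gave 4730 and 3750, a difference of -0.42 that barely exceeded 2 technical errors (0.41). Its partner chain Col1a1 gave 5960 and 4930, a difference of -0.36, which did not. The chains of type I collagen thus lay within 1 technical error of each other. Col5a1, a chain of the type V collagen that nucleates these fibres, gave 636 and 541 (-0.32). Second probes had the same direction in Col1a1 (-0.28), Col1a2 (-0.32) and Col5a1 (-0.25), while Col3a1 was read from 1 spot.

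Among the other collagens, Col8a1, a short-chain network collagen of vessel walls and subendothelium, gave 149 with vehicle and 112 with pioglitazone. Its difference of -0.49 exceeded 2 technical errors (0.41) and stayed short of 1.5-fold. With normexp correction, whose offset of 50 shrinks differences of dim genes, it was -0.29. Col6a2, a chain of the beaded microfibrils around cells, gave 76.7 and 75.2, a difference of -0.11 within 1 technical error. Col14a1, a collagen that lies on the surface of fibres, gave 7.26 and 4.15 on its brighter probe and was not well above background on either array, so it has no difference here.

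**Figure D2:**
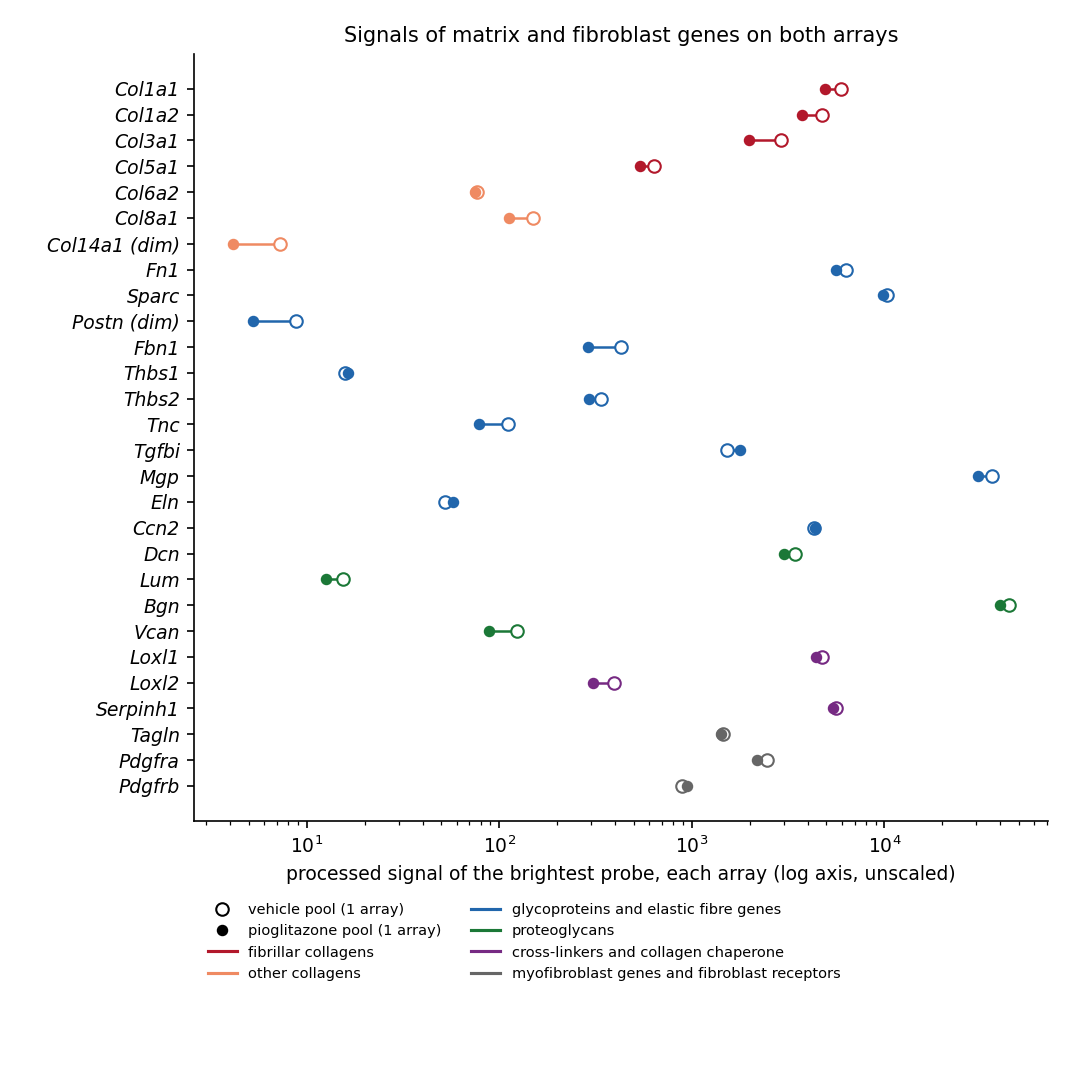
Processed signal of the brightest probe (horizontal axis, log scale, before scaling between arrays) of the 28 genes with a probe; open circles are the vehicle array, filled circles the pioglitazone array, and colours the roles. The filled circle lies to the left in the fibrillar collagens and the proteoglycans, for example 1980 against 2900 in Col3a1, and to the right in Tgfbi (1780 against 1530); Col14a1 and Postn are dim on both arrays.

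Glycoproteins and elastic fibre genes spread the most, from -0.65 to 0.14, with a median of -0.20 over 10 measured genes. Fbn1, the main protein of microfibrils, gave 429 and 289, a difference of -0.65 with a technical error of 0.20 (1.57-fold lower), and 1.29% of measured genes were as low. Its second probe gave 317 and 267, a smaller difference of -0.33, and the mean over both probes was -0.49, which does not reach 1.5-fold. Tnc, the matricellular protein tenascin-C of wounds and scars, gave 111 and 78.9 (-0.57), just short of 1.5-fold. A dimmer probe of Tnc was well above background with vehicle alone, at 10.2 against 4.97. With normexp correction and its offset of 50, which shrinks differences of dim genes, the difference of Tnc was -0.36.

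Mgp, the matrix Gla protein that holds back calcification, gave 36300 and 30800, a difference of -0.32 that falls just short of 20% lower. Sparc, a collagen-binding matricellular protein, gave 10300 and 9820 (-0.15). Thbs2, a thrombospondin, is the only member whose measured probes disagreed: the brighter gave 336 and 291 (-0.29) and the other 176 and 195 (0.066). The value of Thbs2 therefore turned positive when the grid rows that hold the brighter spot were left out.

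Thbs1, another thrombospondin and an activator of latent TGF-beta, was dim, at 15.8 and 16.3 (-0.037), and its sign turned with median, loess or no scaling. Eln, the elastin gene, gave 52.4 and 57.8 (0.059), and its sign turned with normexp correction (-0.052). Tgfbi, a collagen-binding protein induced by TGF-beta, gave 1530 and 1780, a difference of 0.14 with a technical error of 0.20, and its second probe gave 23.3 and 32.1 (0.38). It was the one member with a positive difference under every setting, between 0.10 and 0.26. Postn, a matricellular protein of activated fibroblasts, gave 8.79 and 5.25 and was not well above background on either array.

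Fn1 and Ccn2 have a probe printed 10 times, so their spots give the noise between spots of the same array. Fn1 encodes fibronectin. Its replicated probe ranged from 2350 to 2670 over the vehicle spots, with a median of 2585, and from 2000 to 2400 over the pioglitazone spots, with a median of 2230. The groups of spots overlap, but 9 of the 10 pioglitazone spots lay below the lowest vehicle spot. All 10 differences were negative, from -0.44 to -0.22, with a mean of -0.30 ± 0.062 (SD, 10 spots). The brighter probe of Fn1, in 1 spot, gave 6310 and 5620, a difference of -0.25.

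Ccn2, the connective tissue growth factor gene and a target of TGF-beta, gave 4090 to 4620 with vehicle, median 4320, and 4030 to 4540 with pioglitazone, median 4400. These groups of spots overlap almost wholly. All 10 scaled differences were negative, from -0.12 to -0.011, with a mean of -0.074 ± 0.036 (SD, 10 spots), yet the mean was 0.0083 without scaling, so the direction of Ccn2 depends on the scaling. Spots of 1 array share 1 labelled RNA and 1 hybridisation, and this spread says nothing of the spread between rats, labellings or arrays. Over 206 probes printed several times and well above background in every spot, the median SD between spots was 0.071, which is smaller than the software's error of 0.20.

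**Figure D3:**
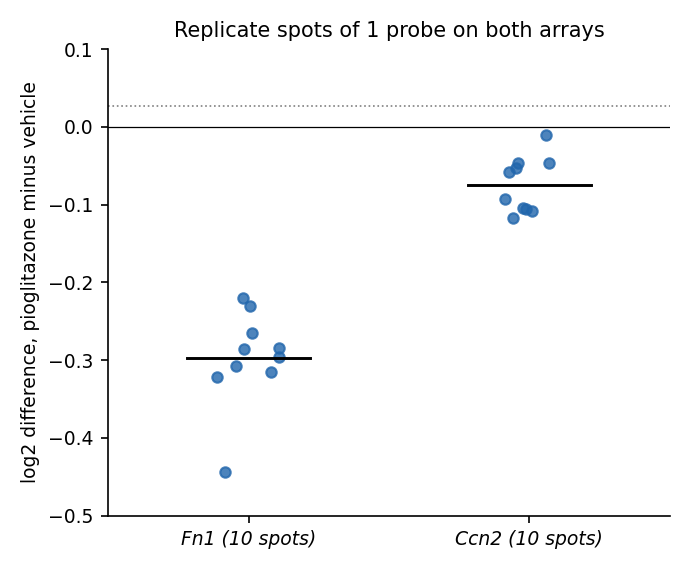
Log2 difference, pioglitazone minus vehicle (vertical axis), of each of 10 spots of 1 probe of Fn1 and of Ccn2, with the mean as a black bar; the dotted line is the median of all measured genes. The Fn1 spots lie between -0.44 and -0.22 and the Ccn2 spots between -0.12 and -0.011, so the spots of the 2 genes do not overlap.

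The 4 proteoglycans all had negative differences, with a median of -0.33. Vcan, the large hyaluronan-binding proteoglycan versican of provisional matrix, gave 124 and 88.2 on its brighter probe (-0.57) and 48.1 and 31.9 on the other (-0.67), so both probes exceeded 2 technical errors. Dcn, decorin, which coats collagen fibres and binds TGF-beta, gave 3420 and 3000 (-0.27). Bgn, its relative biglycan, gave 44300 and 40000 (-0.23). Lum, lumican, a regulator of fibre thickness, was dim at 15.5 and 12.6, and its difference of -0.38 lay close to its technical error of 0.34. With normexp correction it was -0.12, where the offset of 50 exceeds both signals of Lum. Vcan alone of the proteoglycans thus exceeded 2 technical errors of the scanner software.

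The cross-linkers and the chaperone had a median of -0.18 over 3 measured genes. Loxl2, a lysyl oxidase homologue of fibrotic tissue, gave 393 and 307, a difference of -0.44 past 2 technical errors (0.41). Loxl1, the homologue needed for elastic fibres, gave 4740 and 4440 (-0.18), with a second probe at -0.23. Serpinh1, the chaperone HSP47 of procollagen in the endoplasmic reticulum, gave 5630 and 5440 (-0.13). The differences of Loxl1 and Serpinh1 were within 1 technical error or, for the second probe, just above it.

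Myofibroblast genes and fibroblast receptors had a median difference of -0.12 over 3 measured genes. Tagln, the contractile protein transgelin, gave 1450 and 1410, a difference of -0.12. Pdgfra, the receptor that marks resident fibroblasts, gave 2470 and 2180 (-0.26). Pdgfrb, the receptor of pericytes and mesangial cells, gave 889 and 940, which is -0.0018 after scaling and positive with median or no scaling or with normexp. None of the 3 reached 2 technical errors, and the gap between this role and the fibrillar collagens was not tested.

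**Figure D4:**
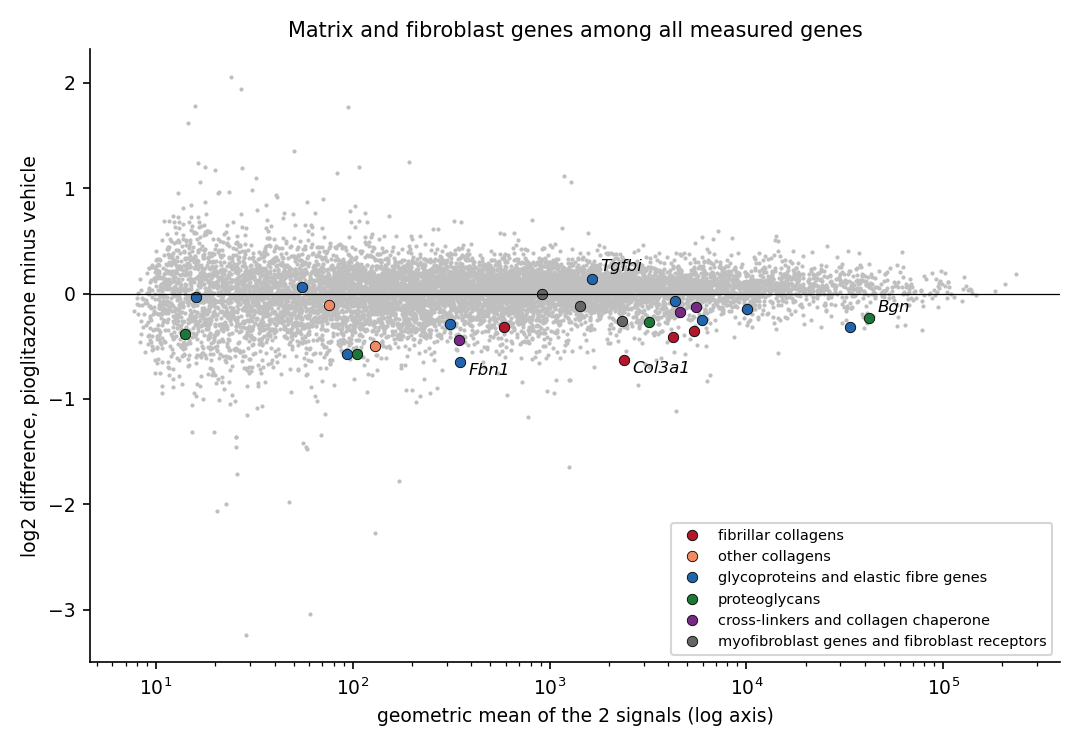
Log2 difference, pioglitazone minus vehicle (vertical axis), against the geometric mean of both signals (log axis) for all 10484 measured genes in grey, with the 26 matrix and fibroblast genes coloured by role; 1 array per group. The coloured points lie mostly in the lower part of the grey cloud at every signal, with Col3a1 at -0.63, Fbn1 at -0.65 and Tgfbi at 0.14.

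Bright and dim members had negative differences alike. In the 14 members with a mean signal of at least 1000 the median was -0.24, with 13 below 0. In the 12 dimmer ones it was -0.35, with 11 below 0. Over the 26 members the rank correlation of signal with difference was 0.095, across genes that share both arrays and are not independent replicates. Of 9 members with several measured probes, 8 had all probes in 1 direction, the exception being Thbs2. Leaving out the 6 members printed in the sixth or the seventh of those bands, which are equal in height (Col1a2, Tagln, Loxl1, Loxl2, Thbs2 and Vcan) gave a median of -0.26 over 20 genes.

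Related genes, which cover matrix assembly, fibroblasts and pericytes, contractile genes and matrix receptors, had a smaller median difference. Over 7 lists that share no gene with the members, 54 of 76 measured genes had a difference below 0, the median was -0.12, and 2 genes were lower and 0 higher by the 1.5-fold criterion, against 1.76% and 0.754% of all genes. The list of elastic fibre and microfibril assembly came closest to the members, with 11 of 12 genes below 0 and a median of -0.22. It was led by the fibulin Fbln1 (234 and 177, -0.49), which exceeded 2 technical errors, and the microfibril protein Mfap2 (21.8 and 17.6, -0.39), which did not. Other matricellular and matrix glycoproteins had 9 of 10 genes below 0 and a median of -0.15, led by the cartilage matrix protein Comp (22.5 and 18.6, -0.36) and by Spp1, osteopontin (85660 and 71170, -0.35), neither past 2 technical errors.

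The enzymes that modify and process collagen were spread around 0, unlike the fibrillar collagens, a contrast that was not tested. Of 16 measured genes 8 were below 0 and 8 above, with a median of -0.0032 that ran from -0.047 to 0.079 over the settings. Plod2, a lysyl hydroxylase, gave 158 and 131 (-0.35), and Fkbp10, a prolyl isomerase for procollagen, gave 91.6 and 77.3 (-0.33), both within 2 technical errors. Other interstitial proteoglycans had 4 of 6 genes below 0 and a median of -0.13, which turned to 0.015 above the median signal or without the sixth and the seventh bands. Aspn, asporin, gave 111 and 89.3 (-0.40), and Lgals1, a galectin, gave 2280 and 2020 (-0.26).

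Among fibroblast and pericyte genes outside the members, 12 of 17 were below 0, with a median of -0.11 and a range from -1.11 to 0.57. With no filter on dim probes the median was -0.26 over 19 genes, beside -0.28 over 28 members in that setting. S100a4, which binds calcium in fibroblasts and leukocytes, gave 6260 and 3060 (-1.11, or 2.17-fold lower), and Cthrc1, a secreted protein of activated fibroblasts, gave 215 and 142 (-0.68). These were the 2 lower genes, and S100a4 is printed in the sixth band of grid rows. Fap, the fibroblast activation protein, went the other way at 0.57, as did Nt5e, a 5′-nucleotidase of cortical fibroblasts, at 0.42, named after their values were seen. Fap counted as higher by 1.5-fold in some settings, 1 gene with median, quantile, loess or no scaling. Contractile genes had a median of -0.071, which turned to 0.011 without scaling. They were led by Cald1, caldesmon (151 and 114, -0.49), and by Cnn1, calponin, which was dim at 9.41 and 7.26 (-0.46). Matrix receptors had 2 of 5 genes below 0 and a median of 0.038, which turned negative with loess, normexp, the mean over probes or genes above the median signal alone (-0.0040 to -0.21), with Cd44, a hyaluronan receptor, at -0.45 (720 and 557) and the collagen-binding integrin Itga1 at -0.28 (14800 and 12900).

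Markers of other cells differed as well, and their part in the matrix result was not tested. These lists too were chosen with earlier results of these data known. Summed signals are given before scaling between the arrays, and differences after it. Macrophage markers were below 0 in 8 of 8 measured genes, with a median of -0.35 and a summed signal of 25865 with vehicle and 23639 with pioglitazone, and Cd163 was not above background. Itgam (24.3 and 15.1, -0.77) and Cd68 (1130 and 889, -0.43) led them. Lymphocyte markers were below 0 in 5 of 5 genes, median -0.30, with sums of 1407 and 1214, led by Cd2 (22.0 and 12.7, -0.87) and Cd3g (527 and 382, -0.55). Markers of injured tubules were below 0 in 7 of 7, median -0.18, with sums of 54163 and 50905, led by Havcr1 (708 and 495, -0.60) and Lcn2 (640 and 484, -0.49). Leukocyte and injury markers thus had the same direction as the matrix genes.

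Urothelial markers were below 0 in 4 of 4 genes, median -0.27, with sums of 1998 and 1765, led by Psca (33.7 and 23.6, -0.60) and Upk1b (889 and 751, -0.33). Adipocyte markers had 4 of 5 genes below 0, a median of -0.10 and sums of 2655 and 1837, and Lep was not above background. The lower sum lies in Retn, resistin (276 and 60.4, -2.27), and Cfd, adipsin (1140 and 534, -1.18), while the other 3 lay between -0.10 and 0.0011. Smooth muscle markers all belong to the related lists too, as contractile genes or, for Des, as a fibroblast and pericyte gene. They are thus not a separate observation. Their median was -0.061 over 5 genes, which turned to 0.021 without scaling. Their sums were 5646 and 5853 before scaling, a change of -2.08% after it. Cnn1 and Des (736 and 721, -0.11) were the farthest from 0, and Lmod1 was not above background. Mesangial markers, which share Pdgfrb with the members, had 4 of 5 genes below 0 and a median of -0.17. Their sums were 2804 and 2880 before scaling, a change of -2.97% after it. Serpine2 was at -0.51 (283 and 210) and Gata3 at -0.43 (197 and 155), while Itga8 was not above background.

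Podocyte and proximal tubule markers had positive differences. Podocyte markers were above 0 in 5 of 5 genes, median 0.30, with sums of 12501 and 14897, among them Nphs1 (774 and 1020, 0.32). Proximal tubule markers were above 0 in 6 of 6, median 0.086, with sums of 166952 and 186712, led by Cubn (19100 and 23700, 0.23) and Slc22a6 (3740 and 4450, 0.17). All markers of both lists were measured. Endothelial markers had a median of -0.055, between -0.071 and 0.084 over the settings, and sums of 13400 and 15922, with Cdh5 at 0.37 (24.2 and 33.2) and Plvap at -0.23 (379 and 341). Collecting duct markers were split, with 3 of 5 genes below 0 and 2 above. Their median was -0.082 and their sums were 86112 and 90766 before scaling, a change of -0.437% after it. Aqp2 was at -0.34 (15467 and 12933) and Aqp3 at -0.29 (21100 and 18300), while the highest of the list was at 0.19.

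**Figure D5:**
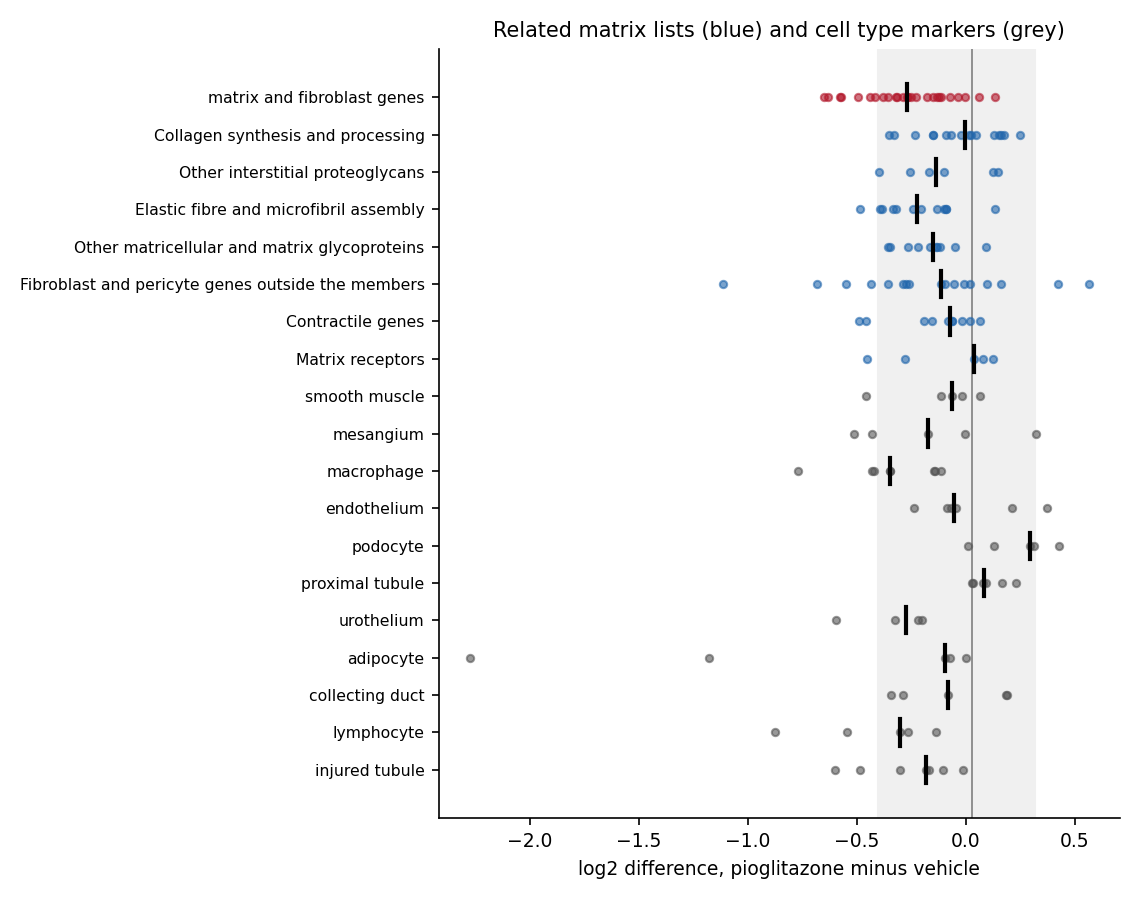
Log2 difference, pioglitazone minus vehicle (horizontal axis), of each measured gene of the matrix and fibroblast genes (red), of 7 related lists (blue) and of 11 cell type lists (grey), with black bars at the medians; the grey band and line are the 5th to the 95th percentile and the median of all measured genes. The median of the matrix genes lies at -0.27, that of collagen synthesis and processing at -0.0032, that of macrophages at -0.35 and that of podocytes at 0.30. The smooth muscle genes are shown in both blue and grey lists.

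Of the spots that are not controls, 71.8% were well above background on the vehicle array and 73.1% on the pioglitazone array, and none was saturated. The pioglitazone array was brighter by 0.082 on the log2 scale at the 75th percentile, which the scaling removed, and the raw signals printed here still contain that shift. The number of arrays limits the precision.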

How the data were processed

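Cy3-labelled pooled kidney RNA was read on 1 Agilent array per group. The scanner files were made with Agilent Feature Extraction 10.7.3.1, per the submitters' processing notes, with background and spatial trends taken off each array separately, per the file headers. The deposited intensity values are linear, and the authors' value table repeats the processed signal at each of 45018 features and so adds no log scale, centring or direction. Its medians were 46.8 (vehicle) and 47.7 (pioglitazone).

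Control spots and 149 spots with an outlier flag were left out. The deposited intensity was put on a log2 scale minus each array's 75th percentile, and the spots of a probe were averaged. RefSeq accessions, without versions, named 16959 of 40998 probes (41.4%), all with 1 symbol, through a gene table of GRCr8. The file headers give the build rn4, so no array coordinates are used. A gene took its brightest probe, measured when it was well above background on both arrays. Python 3.11.15, pandas 2.3.3 and limma 3.58.1 (quantile, cyclic loess and normexp settings) were used. The procedure was tested on simulated data with changes of 2-fold, larger than the difference of any member here. Recovery of smaller changes was not tested.

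The members and lists were chosen with earlier results of these data known. Named are all members, the 2 measured genes with the largest difference of each list, and any listed gene seen on 1 array alone with a bound of 2-fold (none qualified); 1 gene that this rule names is not reported here. Alternatives covered scaling, background, probe choice, filters, flags, grid rows and thresholds.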

Additional observations from a re-analysis of the deposited data

How the results depend on the processing

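Over 11 settings that change the values, the median of the members stayed between -0.30 and -0.18 and every role's median stayed negative (the other collagens have values in 10 settings). Relative to the median of all genes in the same setting, the members' median lay between -0.32 and -0.22. Of 274 medians over all lists and settings, 259 kept their sign and 271 moved by less than the technical error of about 0.20, a wide limit for a median. The 15 that turned or reached 0 fell on 7 lists, none of them a role of the members. Counts moved more. Against 2 lower members there were 4 with the 75th percentile of detected probes, where 1.91% of all genes were lower. There was 1 with median scaling (1.26% of all genes) and 3 without the sixth and the seventh bands (1.78%). Above the median signal there was 1 of 16 (0.572%), and there were 0 without scaling (1.14%) and 0 with normexp (0.458%). There were 0 at 2-fold and 7 at the limit of 20% lower or 25% higher. Both of these limits also required 2 technical errors, and their shares of all genes are not given. By 20% alone 9 members were lower, against 7.98% of all genes. Lower genes of the related lists, 2 in the reported setting, were 1 with normexp, above the median signal, without the sixth and the seventh bands and at 2-fold. The shares of all genes in these settings are those given for the members, except at 2-fold. At the limit of 20% with 2 technical errors 6 were lower, and by 20% alone 17 of 76. Higher ones, 0 there, were 1 with median, quantile, loess or no scaling and 2 at that limit. Lower cell type markers were 6 of 60 measured genes in the reported setting, against 1.76% of all genes. They were 4 with median scaling (1.26% of all genes), no scaling (1.14%) or normexp (0.458%), and 5 with quantile scaling (1.5%) or loess (1.62%). Above the median signal they were 2 of 40, against 0.572% of all genes there. At 2-fold they were 2. At the limit of 20% lower or 25% higher with 2 technical errors they were 12, with 1 higher. By that limit alone 17 of 60 were lower and 3 higher. Signs turned for contractile genes (0.011) and Ccn2 (0.0083) without scaling. They also turned for other interstitial proteoglycans (0.015) above the median signal and without the middle bands, and for Thbs2 (0.066) without those bands. In some settings the medians of collagen synthesis and processing, smooth muscle, endothelium and matrix receptors turned too, as did Thbs1, Pdgfrb and Eln. The collecting duct median reached 0.0000 without scaling. The median of matrix receptors was -0.21 as a mean over probes, that of adipocytes -0.64 above the median signal, from 2 genes, and that of smooth muscle -0.28 without the middle bands, from 2 genes. The cause was not tested. Mean signals were not among the columns used, so normexp took median signals, with an offset of 50. No paired analysis was possible because either treatment has a single array. Lum, Thbs1, Col14a1 and Postn lie near background, where the signal limits what can be seen.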
